A study of Mus musculus with 3 samples.

Results

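The response of mouse embryonic stem cells to a high against a low dose of FGF4 was read from single-cell RNA libraries of cells given 50 or 5 ng/ml of the growth factor. All cells were of the E14tg2a line with the genotype Fgf4 -/-, so the ligand had to be supplied. They had spent 24 h in N2B27 medium with Chiron, an inhibitor of the kinase GSK3, and 1 µg/ml heparin, an FGF cofactor; another library received 0 ng/ml FGF4. Each dose was 1 library made with 10x Genomics 3' chemistry, and no source used here says whether the mutant line was 1 clone. Intact cells were those with at most 10% of their unique molecular identifiers (UMIs) in mitochondrially encoded genes and a total within a factor of 3 of the median of their library. This kept 798 of 975 barcodes at 50 ng/ml and 706 of 874 at 5 ng/ml, together 1504 of the 1863 intact cells of the series.

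FGF4 binds FGF receptors with heparan sulphate as a cofactor and activates the RAS, RAF, MEK and ERK kinase cascade. In embryonic stem cells this cascade switches on its own inhibitors, among them Sprouty proteins and MAP kinase phosphatases, as well as ETS transcription factors of the PEA3 group. ERK activity is known to move cells out of the naive pluripotent state, held by factors such as Nanog and Tfcp2l1, towards the formative state marked by Otx2 and Pou3f1.

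The 50 ng/ml library held 78555798 UMIs in intact cells, with a median of 93694 per cell, and the 5 ng/ml library held 72865524, with a median of 98082.5. Median mitochondrial shares were 5.48% at 50 ng/ml and 5.18% at 5 ng/ml. No cell barcode was shared between libraries. Most of the barcodes left out were small: 136 of 177 at 50 ng/ml and 124 of 168 at 5 ng/ml exceeded the mitochondrial limit and also fell below the limit on the total. Few barcodes lay near the mitochondrial limit, with 9 between 9 and 10% and 8 between 10 and 11% at 50 ng/ml, and 8 and 2 at 5 ng/ml. With 1 library per dose there was no replicate test. Every interval below is a 95% interval for counting error only, cells are not replicates of a dose, and "higher" and "lower" describe these libraries. Scrublet called 26 doublets at 50 ng/ml and 7 at 5 ng/ml, and they were kept.

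The markers of the labelled cell type were present. All 9 pluripotency markers, among them Pou5f1, Sox2 and Zfp42, exceeded 5 UMIs per 1e+06 UMIs of the library (CPM) in both libraries, and they summed to 4281 CPM at 50 ng/ml and 4572 CPM at 5 ng/ml. Feeder fibroblast markers summed to 2.79 CPM at 50 ng/ml and 2.43 CPM at 5 ng/ml, and none of the 9 reached 5 CPM. A longer list of 12 fibroblast genes held 1 that did, Fbln1. It had 72.0 CPM at 0, 57.3 CPM at 5 and 57.2 CPM at 50 ng/ml. Primitive endoderm markers summed to 10.3 CPM at 50 ng/ml and 9.46 CPM at 5 ng/ml. UMIs assigned to Fgf4 remained in every library, at 51.9 CPM at 0, 25 CPM at 5 and 20.6 CPM at 50 ng/ml. A 3' tag can lie outside the deleted part of the gene, so these UMIs check nothing about the mutation.

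The libraries were close to each other. Of 5503 genes that reached 20 CPM in 1 or both, which is about 1571 UMIs at 50 ng/ml or 1457 at 5 ng/ml, 5279 lay within 1.2-fold or had an interval that included 1. The genes that lay 1.2-fold or more above 1, with an interval excluding 1, numbered 63 (1.14%). Genes as far below 1 numbered 161 (2.93%). The split depended on scaling: TMM factors gave 97 higher and 128 lower, and median-of-ratios factors gave 106 higher and 117 lower, since both raised every ratio slightly (by 0.03 and 0.04 on the log2 scale). At 1.5-fold the counts were 8 higher (0.145%) and 19 lower (0.345%), and at 2-fold they were 2 higher (0.0363%) and 4 lower (0.0727%). Between -0.28 and 0.20 lay the middle 95% of log2 ratios, with a median of -0.00461. The median interval reached only 1.05-fold either way, so 1471 genes (26.7%) higher and 1572 (28.6%) lower had intervals excluding 1 at any size. Such small differences cannot be told apart from a difference between any 2 libraries.

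**Figure D1:**
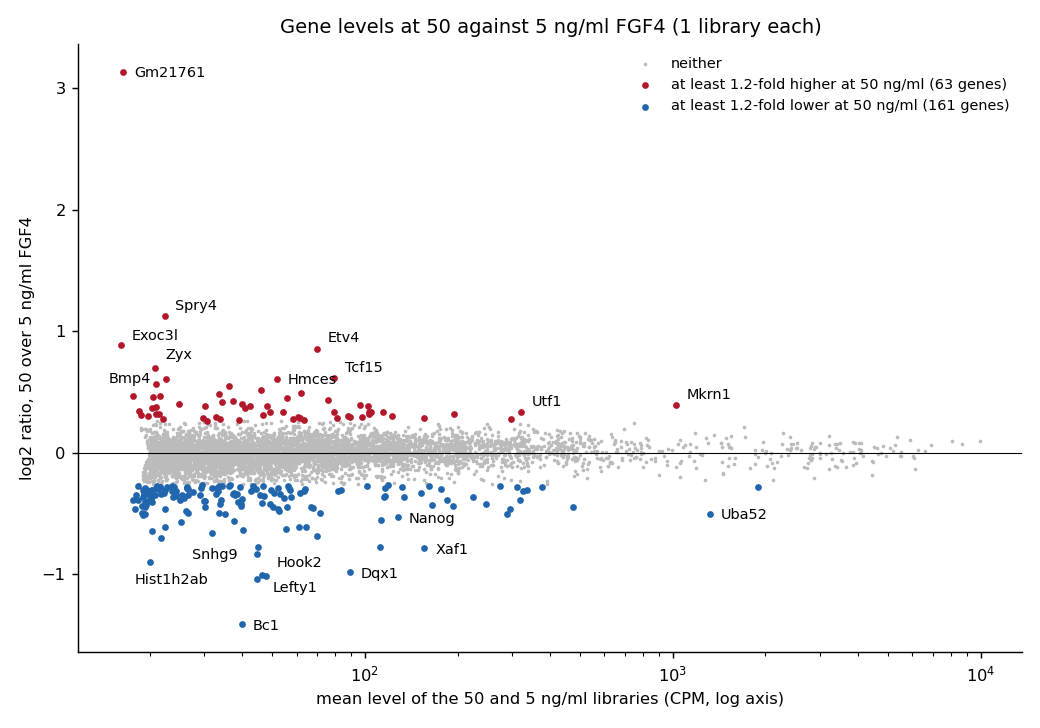
Log2 ratio of CPM at 50 over 5 ng/ml FGF4 (vertical) against the mean CPM of both libraries (horizontal, log axis), 1 point per gene that reached 20 CPM. Red points are the 63 genes that passed 1.2-fold above 1 and blue points the 161 that passed it below; most genes form a flat band around 0, and Bc1 lies lowest.

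Genes that ERK signalling is known to induce were among those furthest above 1. Spry4, whose product restrains growth factor receptors upstream of RAS (ENSMUSG00000024427, GENCODE M21 on GRCm38, 18:38586247-38601415, minus strand), had 30.7 CPM at 50 ng/ml and 14 CPM at 5 ng/ml, a ratio of 2.18 (2.03 to 2.35). Without ligand it had 0.0711 CPM, which is 3 UMIs. Etv4, a PEA3-group ETS transcription factor (ENSMUSG00000017724, 11:101769742-101785371, minus strand), had 89.7 CPM at 50 ng/ml and 49.7 CPM at 5 ng/ml, a ratio of 1.8 (1.73 to 1.88). Its level without ligand was 1.19 CPM. Both genes were thus near the floor without FGF4, clearly present at the low dose and higher again at the high dose.

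Among 29 genes listed as ERK feedback genes and targets, 21 were measured, that is, they reached 5 CPM in 1 or both FGF4 libraries. Of these, 8 lay 1.2-fold or more above 1 at 50 ng/ml and 2 lay as far below, against 2.09% higher and 5.45% lower among all 9189 genes at that level. The median log2 ratio of the list was 0.24, against -0.02 for all genes. Members near the 5 CPM limit can enter through the library in which they are higher, so such counts are descriptions.

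Of the inhibitors of the pathway, the Sprouty and Spred genes had 6 measured members, 3 of them higher, against 2.09% of all genes. Spry2 had 54.4 CPM at 50 ng/ml and 41.7 CPM at 5 ng/ml, a ratio of 1.30 (1.24 to 1.37), and Spry1 had 10.7 and 7.92 CPM at the same doses, a ratio of 1.35 (1.21 to 1.51). Spred1, Spred2 and the FGF receptor antagonist Il17rd stayed within 1.2-fold, with ratios of 1.1, 0.970 and 1.16. The MAP kinase phosphatases, which remove phosphate from ERK and related kinases, had 5 measured members, 3 of them higher, against the same 2.09%. Dusp4 had 12.2 CPM at 50 ng/ml and 6.97 CPM at 5 ng/ml (ratio 1.74, 1.56 to 1.95), and Dusp6 had 18.9 CPM at 50 ng/ml and 12.6 CPM at 5 ng/ml (ratio 1.50, 1.38 to 1.63). Dusp1 had a ratio of 1.21 (1.11 to 1.32). Dusp7 lay in the other direction, at 8.13 CPM at 50 ng/ml and 9.39 CPM at 5 ng/ml.

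The 3 PEA3 factors differed among themselves. Beside Etv4, Etv1 had 31.3 CPM at 50 ng/ml and 26.3 CPM at 5 ng/ml, a ratio of 1.19 (1.12 to 1.26). Etv5 had 189 CPM at 50 ng/ml and 212 CPM at 5 ng/ml, a ratio of 0.890 (0.870 to 0.910), and it was already at 186 CPM without ligand. Among other targets, the growth regulator Myc had 19.3 CPM at 50 ng/ml and 13.3 CPM at 5 ng/ml, a ratio of 1.46 (1.34 to 1.58). The cyclin genes Ccnd1 and Ccnd2, which drive entry into the cell cycle, had ratios of 0.993 and 1.18.

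Egr1, an immediate early gene that ERK induces within minutes to hours in many cells, was lower at the high dose. It had 41.0 CPM at 0, 15.9 CPM at 5 and 9.53 CPM at 50 ng/ml, and was 1.67-fold lower at 50 than at 5 ng/ml (1.52 to 1.83). Klf6, a zinc-finger factor of the same subgroup, was 1.2-fold lower (1.1 to 1.32). The list therefore held genes that differed between the doses in both directions.

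The components that carry the signal, like most genes, hardly differed between the doses. Of 30 genes for FGF ligands, receptors, adaptors, RAS proteins and kinases, 21 were measured. Only Fgf4 itself passed 1.2-fold, being 1.22-fold lower at 50 ng/ml (1.14 to 1.30). Among all 9189 genes at that level, 2.09% were higher and 5.45% lower, so the count was near the share of all genes. Fgfr1, the single receptor gene of the list that was measured, had 38.6 CPM at 50 ng/ml and 43.2 CPM at 5 ng/ml. The RAS genes Nras and Hras had ratios of 0.999 and 1.09. Mapk3, which encodes an ERK kinase, had a ratio of 1.06. The list median was -0.04 on the log2 scale and turned to 0.00290 with median-of-ratios scaling.

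Formative pluripotency genes held the most members above the limit. Of 20 genes, 18 were measured, and 11 of them lay 1.2-fold or more above 1, with 1 as far below, against 2.09% and 5.45% of all genes. Etv4 belongs to this list and to the ERK list. Otx2, a homeobox factor that directs the formative state, had 14.2 CPM at 50 ng/ml and 5.70 CPM at 5 ng/ml, a ratio of 2.5 (2.23 to 2.81). Pou3f1, a POU-domain partner of Otx2, had 10.7 CPM at 50 ng/ml and 5.6 CPM at 5 ng/ml, a ratio of 1.91 (1.70 to 2.16). The forkhead factor gene Foxd3 had 9.88 CPM at 50 ng/ml and 5.49 CPM at 5 ng/ml, a ratio of 1.8 (1.59 to 2.04). All 3 factors were below 20 CPM in both libraries and therefore outside the ranked genes.

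Others of the list varied in level, and not all of them reached 20 CPM. Tcf15, a basic helix-loop-helix factor found in cells primed to leave the naive state, had 18.2 CPM at 0, 62.8 CPM at 5 and 96.4 CPM at 50 ng/ml, a ratio of 1.53 (1.48 to 1.59) between both FGF4 doses. Grhl2, an epithelial transcription factor, had 0.759 CPM at 0, 9.26 CPM at 5 and 15.8 CPM at 50 ng/ml, a ratio of 1.71 (1.55 to 1.88). The Wnt effector Lef1 and the methyltransferase cofactor Dnmt3l had ratios of 1.22 and 1.22. The neural and progenitor factor Sox11 reached 1.29 (1.23 to 1.36) and the kinase gene Pim2 reached 1.37 (1.28 to 1.47). Sox3 was the member that was lower, at 8.01 CPM at 50 ng/ml and 9.88 CPM at 5 ng/ml, or 1.23-fold (1.11 to 1.38). Dnmt3a and Dnmt3b, the de novo DNA methyltransferases, stayed just inside the limit with ratios of 1.15 and 1.18.

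**Figure D2:**
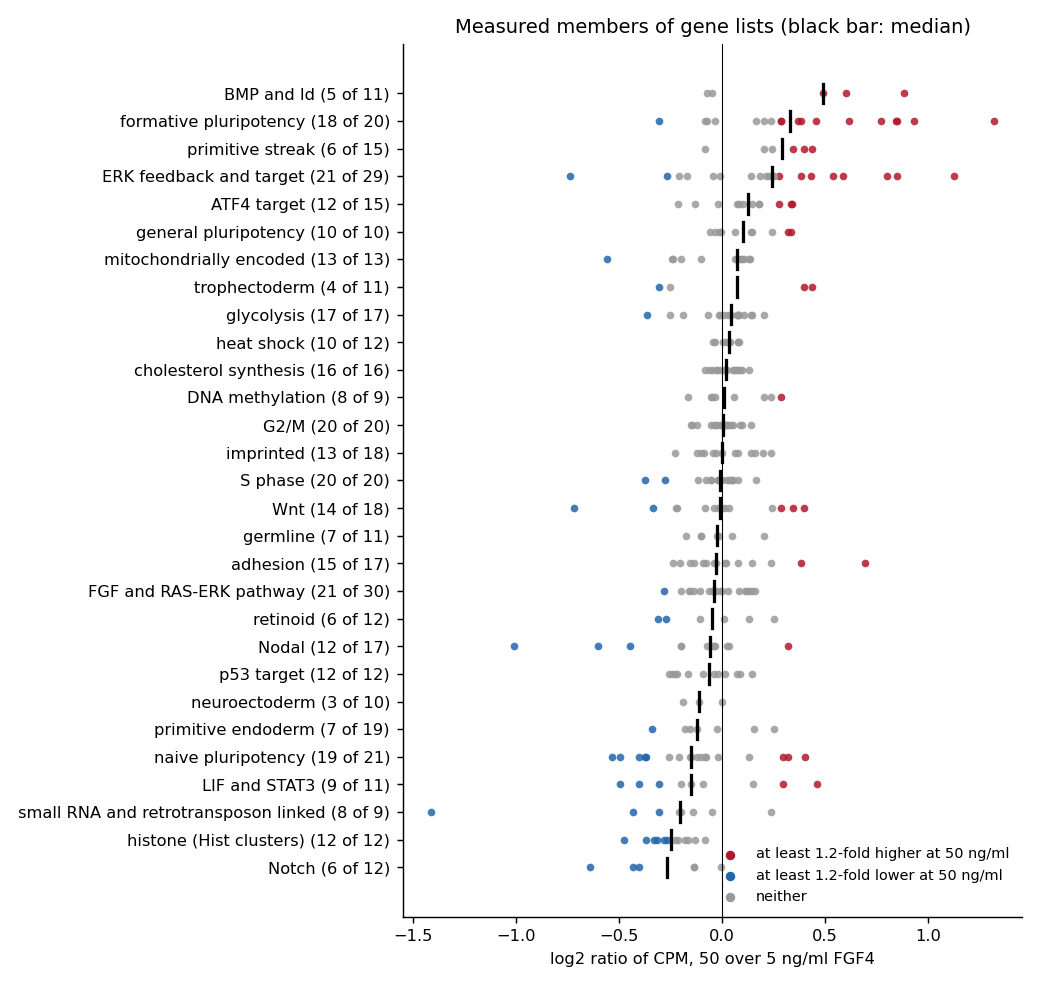
Log2 ratio of CPM at 50 over 5 ng/ml FGF4 for each measured member (point) of 29 gene lists with at least 3 measured members, each list labelled with its measured and total number of genes and its median (black bar); the 2-cell-like list, with a median of 3.01, is not drawn. The BMP and formative lists lie furthest to the right, with medians of 0.49 and 0.33, and the Notch and histone lists furthest to the left, with medians of -0.27 and -0.25.

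Naive pluripotency factors split. Of 19 measured members of 21, 5 lay 1.2-fold or more below 1 at 50 ng/ml and 3 as far above, against 5.45% and 2.09% of all genes at that level, and the median log2 ratio was -0.15. Nanog, the homeobox factor of the naive state, had 280 CPM at 0, 151 CPM at 5 and 105 CPM at 50 ng/ml, so it was 1.45-fold lower at 50 than at 5 ng/ml (1.41 to 1.49). Tfcp2l1, a factor downstream of LIF and Wnt signals, had 176 CPM at 0, 83.7 CPM at 5 and 59.4 CPM at 50 ng/ml and was 1.41-fold lower (1.36 to 1.46). Klf4, Esrrb and Tbx3, further factors of the naive network, were 1.32-fold, 1.29-fold and 1.29-fold lower.

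The 3 naive members that were higher had other dose patterns. Gbx2, a homeobox factor, had 15.8 CPM at 0, 34.4 CPM at 5 and 45.5 CPM at 50 ng/ml, a ratio of 1.32 (1.26 to 1.39). Nr0b1, an orphan nuclear receptor that binds Oct4, had 114 CPM at 50 ng/ml and 91.4 CPM at 5 ng/ml, and the factor Klf5 had a ratio of 1.23 (1.19 to 1.27). The naive marker Zfp42 had 487 CPM at 50 ng/ml and 563 CPM at 5 ng/ml, a ratio of 0.865 that stayed within the limit. The core factors Pou5f1 and Sox2 hardly differed, with ratios of 0.978 and 0.960. In the general pluripotency list, the chromatin gene Utf1 had 358 CPM at 50 ng/ml and 284 CPM at 5 ng/ml, a ratio of 1.26 (1.24 to 1.29). Tdgf1, the Nodal co-receptor, reached 217 CPM at 50 ng/ml and 174 CPM at 5 ng/ml, a log2 ratio of 0.32.

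In the Nodal pathway the secreted inhibitors were lower at the high dose while the ligands and signal carriers hardly differed. Lefty1, which blocks Nodal and its co-receptor (ENSMUSG00000038793, 1:180935022-180938400, plus strand), had 101 CPM at 0, 61.7 CPM at 5 and 30.7 CPM at 50 ng/ml, and was 2.01-fold lower at 50 than at 5 ng/ml (1.91 to 2.12). Its relative Lefty2 had 36.5 CPM at 0, 15.6 CPM at 5 and 10.3 CPM at 50 ng/ml and was 1.52-fold lower (1.38 to 1.66). Lefty1 and Lefty2 are close in sequence, and how the authors' counting split reads that fit both is not known. Nodal and the related ligand gene Gdf3 had ratios of 0.871 and 0.970, and Smad2 and Smad4, which carry the signal to the nucleus, had ratios of 0.973 and 1.02. Acvr2a, a receptor gene near the 5 CPM limit, was 1.36-fold lower (1.17 to 1.58).

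The BMP ligand and its direct targets were higher, 3 of 5 measured genes against 2.09% of all genes, while the receptors were within 1.2-fold. Bmp4 (ENSMUSG00000021835, 14:46383520-46390669, minus strand) had 4.43 CPM at 0, 17.9 CPM at 5 and 27.3 CPM at 50 ng/ml, a ratio of 1.52 (1.42 to 1.63) between both FGF4 doses. The Id genes encode inhibitors of basic helix-loop-helix factors and are induced by BMP signals. Id1 had 11.2 CPM at 50 ng/ml and 6.08 CPM at 5 ng/ml (ratio 1.85, 1.65 to 2.07), and Id3 had 72.3 CPM at 50 ng/ml and 51.4 CPM at 5 ng/ml (ratio 1.41, 1.35 to 1.47). The receptor genes Bmpr1a and Bmpr2 had ratios of 0.952 and 0.966. These were the 5 measured genes of 11 in the list.

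The promoter of Bmp4 is shown with the core motif bound by ETS factors, the family to which Etv4 belongs. A promoter was shown only where it held a match, so the match was fixed by that choice. The 250 bases before the RefSeq start site (GRCm38.p6, chr14:46390670-46390919, minus strand) held 1 match to CCGGAA on either strand, in capitals:

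Bmp4: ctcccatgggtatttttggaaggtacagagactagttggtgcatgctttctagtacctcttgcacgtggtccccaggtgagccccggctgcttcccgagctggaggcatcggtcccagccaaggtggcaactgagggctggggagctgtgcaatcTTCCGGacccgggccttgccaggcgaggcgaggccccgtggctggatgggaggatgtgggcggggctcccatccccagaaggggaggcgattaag

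The motif was common, and less frequent among genes higher at 50 ng/ml than among all genes with at least 20 CPM. It occurred in 24.5% of the promoters of genes at least 1.2-fold higher at 50 ng/ml (12 of 49 with a promoter in the table), in 17.1% of those lower (20 of 117) and in 31.0% of those of all genes with at least 20 CPM (1376 of 4436). Over all 27025 genes with a promoter the share was 13.6%. A match is a description of letters and not a bound site.

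Other signalling lists held genes that differed in both directions. Among Wnt genes, with 14 of 18 measured, Lef1, T and Cdx2 were higher and Notum and Sfrp1 lower. Of all genes, 2.09% were higher and 5.45% lower. The Wnt list median of -0.01 changed sign with scaling. Sfrp1, a secreted Wnt inhibitor, had 46.8 CPM at 0, 13.3 CPM at 5 and 8.11 CPM at 50 ng/ml and was 1.64-fold lower (1.48 to 1.82). Axin2 and Sp5, general targets of beta-catenin, had ratios of 0.946 and 1.02. Among Notch genes, 3 of 6 measured were lower and none was higher, against 5.45% and 2.09% of all genes. They were led by the repressor gene Hes1 at 84.4 CPM at 0, 19.6 CPM at 5 and 12.6 CPM at 50 ng/ml, 1.56-fold lower (1.44 to 1.69). Notch1 was 1.35-fold lower (1.23 to 1.47) and Notch2 1.32-fold lower (1.16 to 1.51). In the LIF list, 2 of 9 measured genes were higher and 3 lower, against the same 2.09% and 5.45%. The receptor gene Cntfr had a ratio of 1.38 (1.29 to 1.48), and Il6st, which encodes the shared receptor chain gp130, was 1.23-fold lower (1.15 to 1.33).

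Most genes of the early lineage lists were not measured. Of 15 primitive streak genes, 6 were measured and 3 were higher, against 2.09% of all genes at that level: Eomes, a T-box factor, had 9.52 CPM at 50 ng/ml and 7.03 CPM at 5 ng/ml, a ratio of 1.36 (1.21 to 1.52). The T-box factor T had 12.0 CPM at 50 ng/ml and 9.47 CPM at 5 ng/ml, a ratio of 1.27 (1.15 to 1.4), and Cdx2 had a ratio of 1.32 (1.19 to 1.46). None of 7 primitive endoderm regulators, among them Gata6 and Sox17, reached 5 CPM in either library. Below that limit, Gata6 had 175 UMIs at 50 ng/ml, in 2.88% of cells, and 4 UMIs at 5 ng/ml, in 0.567%. Sox17 had 23 UMIs at 50 ng/ml and 4 at 5 ng/ml. Gata4 and Foxa2 lay the other way, with 20 and 12 UMIs at 50 ng/ml and 24 and 23 at 5 ng/ml. Of 3 measured neuroectoderm genes, Tubb3, Stmn2 and Pax6, none passed 1.2-fold, against 2.09% higher and 5.45% lower of all genes. Stmn2, which encodes a microtubule-destabilising protein, was abundant, with 489 CPM at 50 ng/ml and 527 CPM at 5 ng/ml. In 1 cell at 50 ng/ml the primitive endoderm list summed to 63 UMIs of 25000, against at most 13 in any cell at 5 ng/ml.

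Lists of other programs are given for comparison, though not all were level across the doses. Their counts are to be read against 2.09% higher and 5.45% lower of all 9189 genes with at least 5 CPM. A short list with no such gene is near those shares. The measured imprinted genes summed to 479 CPM at 0, 1014 CPM at 5 and 1062 CPM at 50 ng/ml. No gene of the G2/M list (20 measured), the cholesterol list (16), the p53 target list (12), the heat shock list (10) or the imprinted list (13) passed 1.2-fold in either direction. In the S phase list Ccne2 and Mcm7 were lower and 18 of 20 were within the limit. The glycolysis list held Ldhb alone, at 196 CPM at 50 ng/ml and 252 CPM at 5 ng/ml, 1.28-fold lower (1.26 to 1.31). Among ATF4 targets, which respond to amino acid stress, Chac1, Mthfd2 and Trib3 were higher with ratios of 1.27, 1.26 and 1.21, and none of 12 was lower. Of the mitochondrially encoded genes, mt-Atp8 was 1.47-fold lower (1.43 to 1.52) and the other 12 were within the limit.

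The smaller lists are given by their counts, to be read against 2.09% higher and 5.45% lower of all genes. Of 4 measured trophectoderm genes, Cdx2 and Eomes, which the streak list also holds, were higher and Tead4 was lower. None of 7 germline genes passed 1.2-fold, nor did Fbln1, the 1 measured fibroblast gene. Dnmt3l alone of 8 DNA methylation genes was higher, and the tight junction gene Cldn6 and Zyx were the 2 of 15 adhesion genes that were higher. Of 6 retinoid genes, Crabp2 and Stra8 were lower. Among 8 small RNA and retrotransposon-linked genes, Bc1, Gas5 and Neat1 were lower. Nid1, a basement membrane gene, was the 1 of 7 measured primitive endoderm genes that was lower.

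Canonical histone genes were lower at the high dose. All 12 measured histone cluster genes of the list had ratios below 1 and 6 were at least 1.2-fold lower, against 5.45% of all genes at that level, with a median log2 ratio of -0.25. Over all 16 histone cluster genes with at least 20 CPM, a family counted after its values were seen, the median was -0.29 and 10 were at least 1.2-fold lower, against 2.93% of all genes. The linker histone gene Hist1h1b had 291 CPM at 50 ng/ml and 362 CPM at 5 ng/ml, 1.24-fold lower (1.22 to 1.26). Hist1h4d had 44.0 CPM at 50 ng/ml and 61.2 CPM at 5 ng/ml, 1.39-fold lower (1.33 to 1.45). Histone genes are near-identical copies whose messages mostly lack long poly(A) tails, so counts of single members are uncertain.

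Predicted genes and those of ribosomal proteins were not ranked. By their ratio, the 15 genes furthest above 1 ran from Spry4 at 2.18 to Pim2 at 1.37. In every one of them the 50 ng/ml library was the highest of the 3 libraries. Exoc3l, related to a subunit of the exocyst that tethers secretory vesicles (ENSMUSG00000043251, 8:105289924-105296101, minus strand), had 3.41 CPM at 0, 11.4 CPM at 5 and 21 CPM at 50 ng/ml, a ratio of 1.84 (1.69 to 2.01). Zyx, which encodes the focal adhesion protein zyxin, had 2.54 CPM at 0, 15.8 CPM at 5 and 25.7 CPM at 50 ng/ml, a ratio of 1.62 (1.51 to 1.74). Hmces, which shields abasic sites in single-stranded DNA, had 30.9 CPM at 0, 40.9 CPM at 5 and 62.5 CPM at 50 ng/ml, a ratio of 1.53 (1.46 to 1.60).

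The remaining genes of that ranking had varied roles. Rhoc, a small GTPase of cell motility, had 25 CPM at 50 ng/ml and 16.9 CPM at 5 ng/ml, and Noct, the circadian protein nocturnin, had 43.0 CPM at 50 ng/ml and 29.4 CPM at 5 ng/ml. Their ratios were 1.48 (1.38 to 1.59) and 1.46 (1.38 to 1.54). Itpk1, an inositol phosphate kinase, Tcfl5, a basic helix-loop-helix factor, and Bbs2, a subunit of a ciliary transport complex, had ratios of 1.43, 1.39 and 1.38. Together with Tcf15, Bmp4, Id3, Cntfr and Pim2, described above, they make up the 15.

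The 15 genes furthest below 1 ran from Bc1, 2.66-fold lower at 50 ng/ml, to Eno1b, 1.52-fold lower. Their order over the 3 libraries was of another kind: the 5 ng/ml library was the highest in 12 of them, and the library without ligand in Lefty1, Calcoco2 and Slamf1. For those 12 genes the lower level at 50 ng/ml was thus a return towards the level without FGF4, or below it, and no steady change with dose. Whether the 5 ng/ml library stands apart for these genes for a reason other than its dose cannot be told apart with 1 library per dose.

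**Figure D3:**
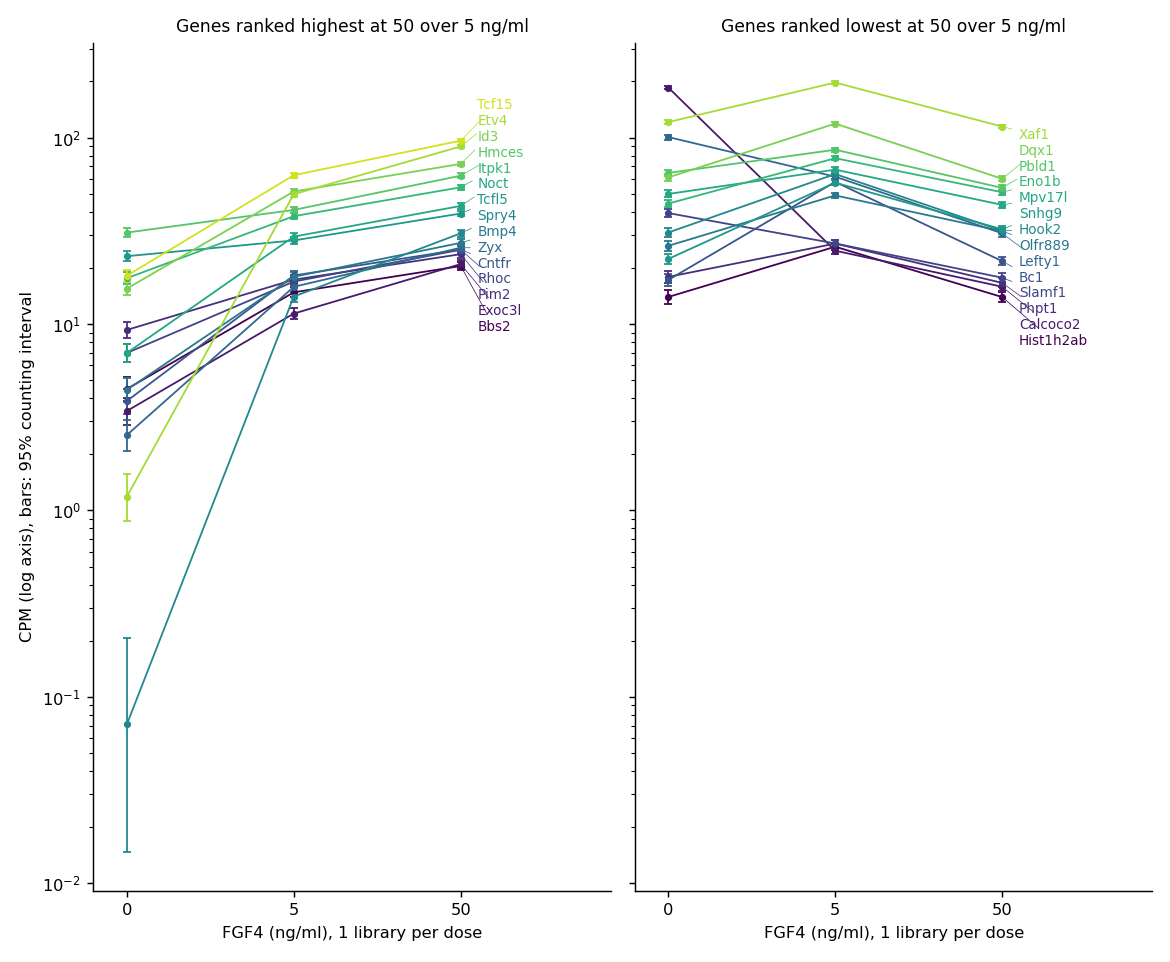
CPM (vertical, log axis) at 0, 5 and 50 ng/ml FGF4 for 15 genes ranked highest (left) and 14 ranked lowest (right) by their ratio at 50 over 5 ng/ml; points are the 3 libraries, bars are 95% counting intervals. All 15 genes on the left are highest at 50 ng/ml, and 11 of the 14 on the right are highest at 5 ng/ml.

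Bc1, a short non-coding RNA best known from neurons, where it restrains translation, had 17.2 CPM at 0, 57.9 CPM at 5 and 21.7 CPM at 50 ng/ml, and was 2.66-fold lower at 50 than at 5 ng/ml (2.52 to 2.82). Its transcript (ENSMUSG00000115783, GRCm38, chr7:144914470-144914637, plus strand, GENCODE M21) is shown because it differed most among the ranked genes; capitals mark its 3 runs of 5 or more A, the longest of 23, the kind of stretch that an oligo(dT) primer can pair with:

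Bc1: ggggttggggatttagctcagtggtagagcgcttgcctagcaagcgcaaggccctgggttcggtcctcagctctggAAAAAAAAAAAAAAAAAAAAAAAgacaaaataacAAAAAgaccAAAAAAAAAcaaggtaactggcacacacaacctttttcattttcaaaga

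The difference was spread over cells: a Bc1 UMI was found in 32.3% of cells at 50 ng/ml and 48.9% at 5 ng/ml after each cell was thinned to 25000 UMIs. Without thinning the shares were 57.4% at 50 ng/ml and 73.1% at 5 ng/ml. Snhg9, a host transcript of small nucleolar RNAs, also differed across many cells, with 32.2 CPM at 50 ng/ml and 57.3 CPM at 5 ng/ml, 1.78-fold lower (1.69 to 1.87).

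Most of the other genes of that ranking were concentrated in few cells. In 10 of the 15, the 8 cells richest in the gene, which are the top 1%, held at least 15% of its UMIs at 5 ng/ml, a level that 35 of all 5503 genes reached. None of the 15 genes ranked highest reached it; their top cells held 3.76 to 12.5% of the UMIs at 5 ng/ml. Slamf1, a surface receptor of immune cells, was the extreme, with 52.2% of its UMIs in the top 8 cells at 50 ng/ml and 56.1% at 5 ng/ml. For such genes a difference of sums can rest on a handful of cells.

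Part of the difference in Hook2, which links cargo to microtubules, rested on 1 cell. Hook2 had 31.6 CPM at 50 ng/ml and 63.8 CPM at 5 ng/ml, 2.02-fold lower (1.92 to 2.12). A single cell at 5 ng/ml held 707 Hook2 UMIs of 25000, while the next cell held 45. Without that cell Hook2 was 1.53-fold lower, and among cells with 60000 to 150000 UMIs its ratio was 0.736. The same cell also had the highest counts of the library for Xaf1 (333 UMIs), Olfr889 (146), Mpv17l (145), the protease gene Ctsl (239) and mt-Co3 (619). It held 39591 UMIs, 9.97% of them mitochondrial, which put it just inside the limit, and 5 UMIs of Pou5f1 against a median of 10. Scrublet did not call it a doublet. Leaving it out moved no ranked gene other than Hook2 by more than 1.07-fold.

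How many cells had high counts varied among these genes. Dqx1, which encodes a putative RNA helicase, had 60.1 CPM at 50 ng/ml and 119 CPM at 5 ng/ml, 1.98-fold lower (1.91 to 2.05). Cells with at least 10 Dqx1 UMIs made up 5.26% at 50 ng/ml (3.82 to 7.05) and 10.9% at 5 ng/ml (8.70 to 13.4). Xaf1, a partner of the apoptosis inhibitor XIAP, had 115 CPM at 50 ng/ml and 197 CPM at 5 ng/ml, 1.72-fold lower (1.68 to 1.77). Its high cells made up 8.65% at 50 ng/ml (6.79 to 10.8) and 12.5% at 5 ng/ml (10.1 to 15.1), intervals that overlap. For Mpv17l they numbered 10 of 798 at 50 ng/ml and 33 of 706 at 5 ng/ml. The intervals also overlapped for Hook2, Olfr889, Pbld1, Slamf1 and Calcoco2, and for Calcoco2 the share was 0.376% at 50 ng/ml and 0.283% at 5 ng/ml.

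The cells rich in these genes were mostly not the same. Over the 45 pairs of those 10 genes, the median correlation across cells was 0.00477 at 50 ng/ml (798 cells) and 0.0254 at 5 ng/ml (706 cells). The highest was 0.777 at 5 ng/ml, for Hook2 and Mpv17l, which shared the single cell described above, and 0.225 at 50 ng/ml. No pair shared more than 1 of its 8 top cells at 50 ng/ml or more than 2 at 5 ng/ml. Leaving out the top 1% of cells for each gene kept Dqx1 2.03-fold lower, Lefty1 2.1-fold lower and Xaf1 1.62-fold lower.

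The rest of the ranking is given by values. Hist1h2ab, a histone H2A gene, had 14 CPM at 50 ng/ml and 26.0 CPM at 5 ng/ml, 1.86-fold lower (1.73 to 2.01). The phosphohistidine phosphatase gene Phpt1 and Pbld1, named for a phenazine biosynthesis-like domain, were 1.62-fold and 1.60-fold lower. Calcoco2, an autophagy receptor, had 186 CPM at 0, 24.7 CPM at 5 and 15.8 CPM at 50 ng/ml and was 1.56-fold lower (1.45 to 1.68). The odorant receptor gene Olfr889 and Mpv17l, a relative of a mitochondrial membrane protein, were 1.55-fold and 1.54-fold lower, and Slamf1 and Eno1b were 1.53-fold and 1.52-fold lower. Eno1b is a close copy of the enolase gene Eno1, so its reads are uncertain; Eno1 itself had a ratio of 1.1.

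Read per cell, the marker genes differed in their mean count and in the share of cells in which a UMI was found. That share rises with the mean and with depth. It therefore does not separate the number of cells that express a gene from the level in each cell. Every intact cell was thinned to 25000 UMIs, which lost no cell. Spry4 averaged 0.751 UMIs per cell at 50 ng/ml and 0.353 at 5 ng/ml. At least 1 Spry4 UMI was found in 46.0% of cells at 50 ng/ml (42.5 to 49.5) and 26.5% at 5 ng/ml (23.3 to 29.9). Without thinning the shares were 74.7% at 50 ng/ml and 53.1% at 5 ng/ml. No second cell type was there to read free RNA in, so its part in these shares was not measured. Without ligand, 0 of 359 cells had a Spry4 UMI at the same depth, and a floor of 3 cells allows a share of up to 0.836%. The highest cell held 8 Spry4 UMIs at 50 ng/ml and 5 at 5 ng/ml.

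Etv4 differed over most of its distribution. Its median was 2 UMIs at 50 ng/ml and 1 at 5 ng/ml, the 90th percentile was 5 and 3 at the same doses, and the highest cell held 9 and 8. Cells with an Etv4 UMI made up 83.8% at 50 ng/ml (81.1 to 86.3) and 62.6% at 5 ng/ml (58.9 to 66.2), or 97.6% and 90.2% without thinning. At 0 ng/ml the share was 2.23%. The Fano factor, the variance over the mean, was 1.39 at 50 ng/ml and 1.47 at 5 ng/ml, where counting alone gives 1.

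Otx2 was detected in a minority of cells at both doses. Cells with an Otx2 UMI made up 20.1% at 50 ng/ml (17.3 to 23.0) and 10.8% at 5 ng/ml (8.58 to 13.3), or 40.2% and 24.9% without thinning, and 3.62% at 0 ng/ml. Its Fano factor was 2.37 at 50 ng/ml and 1.65 at 5 ng/ml, and the highest cell held 9 UMIs at 50 ng/ml and 5 at 5 ng/ml. The means differed between the doses, so these Fano factors are not a comparison at matched mean.

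Lefty1 had the highest Fano factor of the 4 at both doses. Cells with a Lefty1 UMI made up 26.4% at 50 ng/ml (23.4 to 29.6) and 40.8% at 5 ng/ml (37.1 to 44.5), or 45.2% and 63.3% without thinning, and 49.9% at 0 ng/ml. The highest cell held 27 UMIs at 50 ng/ml and 41 at 5 ng/ml. Cells with at least 10 Lefty1 UMIs numbered 10 of 798 at 50 ng/ml (0.603 to 2.29%) and 31 of 706 at 5 ng/ml (3.00 to 6.17%). The Fano factor was 5.58 at 50 ng/ml and 9.13 at 5 ng/ml, again at unlike means. The coefficient of variation, the standard deviation over the mean, lay the other way, at 2.76 at 50 ng/ml and 2.42 at 5 ng/ml. For Otx2 it was 2.56 at 50 ng/ml and 3.33 at 5 ng/ml, so the order of the genes depended on the measure.

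**Figure D4:**
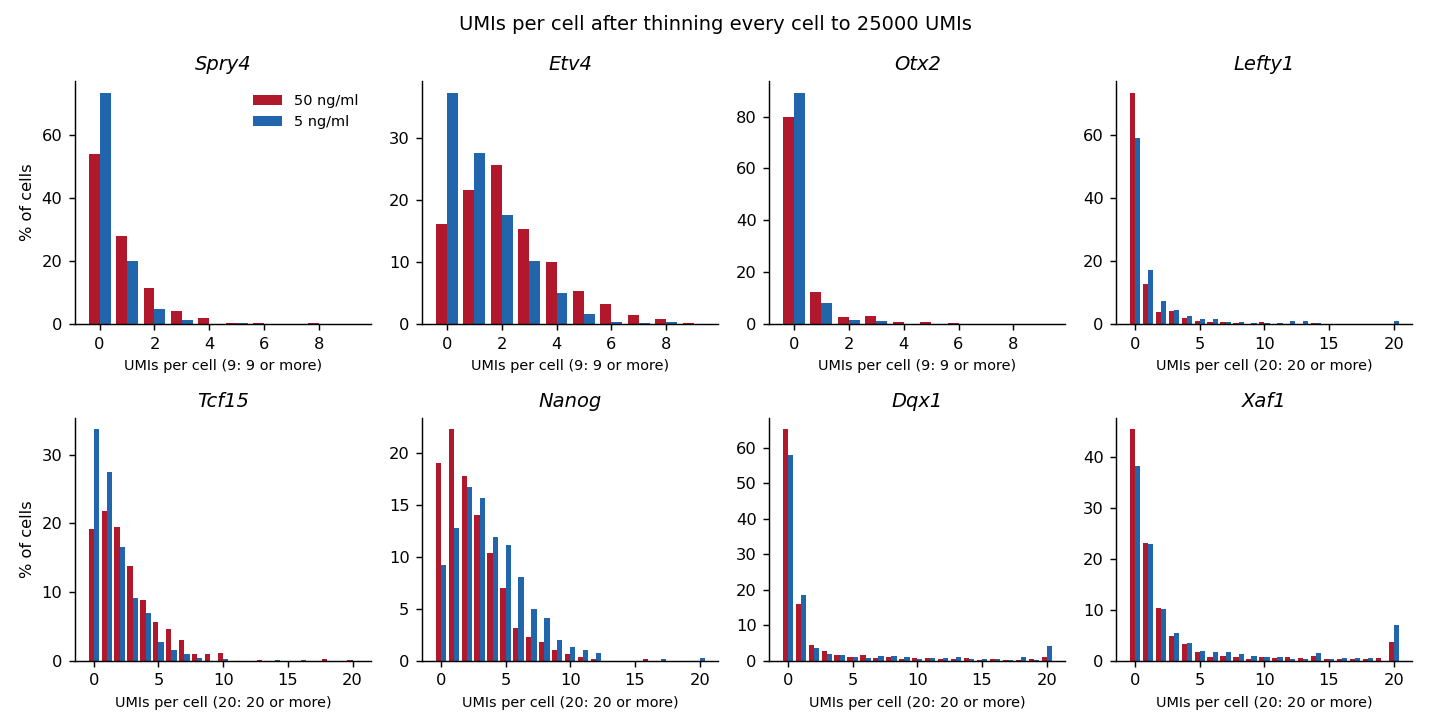
Share of intact cells (vertical, %) by the number of UMIs of a gene per cell (horizontal) after thinning every cell to 25000 UMIs, for 8 genes; red bars are the 798 cells at 50 ng/ml, blue bars the 706 cells at 5 ng/ml. Spry4, Etv4, Otx2 and Tcf15 have fewer cells at 0 UMIs at 50 ng/ml, while Lefty1, Nanog, Dqx1 and Xaf1 have more.

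Other genes gave similar pictures. Tcf15 had a median of 2 UMIs at 50 ng/ml and 1 at 5 ng/ml, and 80.8% of cells at 50 ng/ml (77.9 to 83.5) and 66.3% at 5 ng/ml (62.7 to 69.8) had a UMI. Nanog had a median of 2 UMIs at 50 ng/ml and 3 at 5 ng/ml, with a UMI in 81.0% of cells at 50 ng/ml (78.1 to 83.6) and 90.8% at 5 ng/ml (88.4 to 92.8). Its distributions overlapped widely, with 90th percentiles of 5 UMIs at 50 ng/ml and 7 at 5 ng/ml. Tfcp2l1 had a UMI in 67.9% of cells at 50 ng/ml (64.6 to 71.1) and 78.3% at 5 ng/ml (75.1 to 81.3).

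Summed over lists, the shift of the cells was modest. The formative list averaged 25.6 UMIs per cell at 50 ng/ml and 20.6 at 5 ng/ml. Of the cells at 50 ng/ml, 69.4% (66.1 to 72.6) lay above the median of the 5 ng/ml cells, against 45.6% of the 5 ng/ml cells themselves. The ERK list averaged 24.8 UMIs at 50 ng/ml and 22.7 at 5 ng/ml, with 62.5% (59.1 to 65.9) of the 50 ng/ml cells above that median, against 47.9% of the 5 ng/ml cells. The naive list averaged 145 UMIs at 50 ng/ml and 152 at 5 ng/ml, with 41.0% (37.5 to 44.5) above it, against 50.0%. Some lists of other programs shifted nearly as far as the ERK list. The shares above the 5 ng/ml median were 61.5% against 49.3% for ATF4 targets, 61.0% against 50.0% for glycolysis and 59.0% against 49.2% for heat shock. The S phase list (47.4% against 50.0%) and the G2/M list (46.7% against 49.0%) lay slightly the other way. The mitochondrially encoded genes, as a gauge of RNA quality, averaged 1374 UMIs at 50 ng/ml and 1291 at 5 ng/ml, with 62.7% (59.2 to 66.0) above it, against 49.9%; their part in the other differences was not tested. Coefficients of variation were close for the formative (0.357 at 50 ng/ml, 0.382 at 5 ng/ml), ERK (0.280 and 0.297 at the same doses) and naive lists (0.220 and 0.235).

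Correlations across cells within a library describe which genes went together. Lefty1 and Lefty2 correlated at 0.361 over the 798 cells at 50 ng/ml and 0.432 over the 706 cells at 5 ng/ml. Nanog and Tfcp2l1 correlated at 0.283 at 50 ng/ml and 0.197 at 5 ng/ml. Weak correlations in counts this sparse are no finding, that of Nanog and Tfcp2l1 included. Spry4 and Etv4 gave 0.110 at 50 ng/ml and 0.148 at 5 ng/ml. Bmp4 and Id1 gave 0.264 and 0.162 at the same doses, and Bmp4 and Id3 gave 0.0888 and 0.119. All cells of a library share its preparation.

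The spread among cells was alike at both doses when genes of matched mean were compared. For 5121 genes with at least 0.5 UMIs per cell and similar means, the median Fano factor was 1.13 at 50 ng/ml and 1.13 at 5 ng/ml, and the median log2 ratio was -0.00255. The middle 95% of these ratios ran from -0.24 to 0.24. Fano factors at least 1.2-fold higher at 50 ng/ml were found for 86 genes (1.68%) and at least 1.2-fold lower for 99 (1.93%). Over the 4924 of these genes that also reached 0.5 UMIs per cell without ligand, the medians were 1.14 at 0, 1.13 at 5 and 1.13 at 50 ng/ml. Counting alone gives 1, so these medians are mostly counting error and say little about dose and spread. With no matching of means the median log2 ratio was -0.00337.

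**Figure D5:**
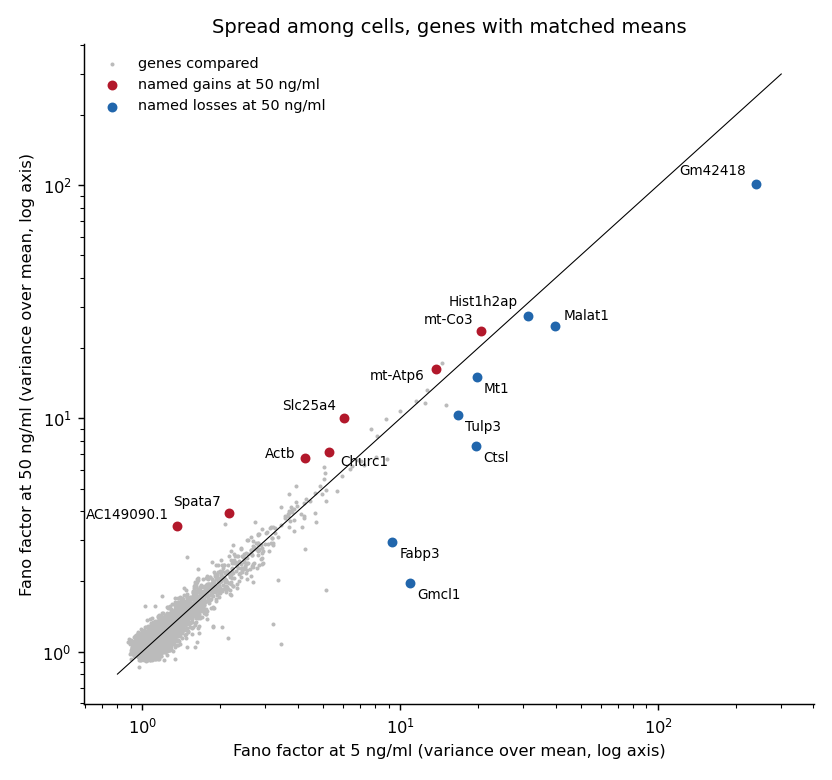
Fano factor (variance over mean of UMIs per cell at 25000 UMIs) at 50 ng/ml (vertical, log axis) against 5 ng/ml (horizontal, log axis) for 5121 genes with matched means; the line marks equality, red points are the gains and blue points the losses at 50 ng/ml that are named here. Nearly all genes lie on the line, and Gm42418 is the furthest right with 101 at 50 ng/ml and 240 at 5 ng/ml.

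Among the largest gains of spread at 50 ng/ml were those of Slc25a4, a mitochondrial ADP/ATP carrier, whose Fano factor was 10.1 at 50 ng/ml and 6.03 at 5 ng/ml, and of the actin gene Actb, with 6.77 at 50 ng/ml and 4.26 at 5 ng/ml. Both kept the gap without their highest cell, at 9.46 and 5.63 for Slc25a4 and at 6.21 and 4.12 for Actb, in the same order of doses. The mitochondrial genes mt-Co3 and mt-Atp6 were also among them, with 23.6 at 50 ng/ml and 20.5 at 5 ng/ml for mt-Co3. AC149090.1 gained from 1 cell: its value of 3.46 at 50 ng/ml, against 1.36 at 5 ng/ml, became 1.68 at 50 ng/ml without a cell that held 57 UMIs. Churc1 and Spata7 were further gains.

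Several of the largest losses also came from single cells at 5 ng/ml. Ctsl, a lysosomal protease gene, had a Fano factor of 7.6 at 50 ng/ml and 19.6 at 5 ng/ml, but 6.60 at 50 ng/ml and 7.16 at 5 ng/ml without the highest cell of each library, which at 5 ng/ml was the Hook2 cell. Fabp3, a fatty acid carrier, had 2.96 at 50 ng/ml and 9.28 at 5 ng/ml, but 2.37 at 50 ng/ml and 2.40 at 5 ng/ml without those cells. Gmcl1 kept a gap, with 1.2 at 50 ng/ml and 5.01 at 5 ng/ml without its highest cells. Gm42418, which overlaps ribosomal RNA sequence, had 101 at 50 ng/ml and 240 at 5 ng/ml, and 80.3 at 50 ng/ml and 151 at 5 ng/ml without them. The nuclear RNA Malat1 (25 at 50 ng/ml, 39.8 at 5 ng/ml), Tulp3, the metallothionein gene Mt1 and Hist1h2ap were the other losses.

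A last group was carried by very few cells at both doses. The 2-cell-like genes mark rare stem cells with a transcriptome like that of the early embryo. Of 15 genes in the list, Zscan4c, Zscan4d, Gm5662 and Gm21761 were measured, all of them through the 50 ng/ml library, with log2 ratios from 2.32 to 3.68. Zscan4c had 16.2 CPM at 50 ng/ml and 3.25 CPM at 5 ng/ml, and Gm21761, the only ranked-level gene beside Spry4 past 2-fold, had 29.5 CPM at 50 ng/ml and 3.36 CPM at 5 ng/ml. Without ligand they had 12.0 and 49.6 CPM. Cells with at least 20 UMIs of the list numbered 8 of 798 at 50 ng/ml (1.00%, 0.434 to 1.97) and 3 of 706 at 5 ng/ml (0.425%, 0.0877 to 1.24), and 5 of 359 at 0 ng/ml (1.39%). These intervals overlap, and the top 1% of cells held 96.7% of the UMIs of the list at 50 ng/ml and 94.9% at 5 ng/ml, so the ratios describe a handful of cells. Members of these families are near-identical copies, and their counts are uncertain.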

How the data were processed

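The deposited files were filtered matrices of UMI counts per gene and cell, made with Cell Ranger 4.0.0 per the file headers, on mm10 per the submitters' processing notes. The annotation release, the choice of barcodes, and which libraries were dissociated with trypsin or Accutase are not given in the sources used here. From these counts, UMIs were summed over intact cells and scaled to 1e+06 per library (CPM). Ratios have exact conditional binomial intervals, levels exact Poisson intervals and shares exact binomial (Clopper-Pearson) intervals at 95%. Amplified molecules are not fully independent, so the intervals cover counting error only. Cells were thinned to 25000 UMIs without replacement, and no intact cell fell below that depth. Genes named were the 15 furthest above and below 1 among those with at least 20 CPM, past 1.2-fold, predicted and ribosomal protein genes left out; the members of 31 lists; and the 8 largest gains and losses of Fano factor. A few genes chosen in this way are left unreported. The members and lists were chosen with earlier results of these data known. Doublets were called with Scrublet in scanpy 1.11.5 and kept. Python 3.11.15, numpy 2.4.6, scipy 1.17.1, pandas 2.3.3 and matplotlib 3.10.9 were used, and the scripts were tested on simulated data. Alternatives were other scalings, expression minimums, cell filters and thinning depths.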

Additional observations from a re-analysis of the deposited data

How the results depend on the processing

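No paired analysis was possible because each dose was 1 library. Counts of genes depended on the expression minimum and the scaling. At 1.2-fold the genes higher at 50 ng/ml numbered 97 with TMM factors and 106 with median-of-ratios factors, against 63; at 2-fold the genes lower numbered 2 and 1 with those scalings, against 4. With a minimum of 5 CPM the counts higher and lower were 192 and 501 at 1.2-fold, 40 and 54 at 1.5-fold, and 17 and 11 at 2-fold. With no minimum they were 563 and 1296, 285 and 511, and 162 and 248. With a minimum of 50 CPM they were 32 and 67 at 1.2-fold, with 3 higher at 1.5-fold and 0 higher at 2-fold. Genes higher at 2-fold numbered 4 with all barcodes, 1 among cells with 60000 to 150000 UMIs, and 1 without the top 1% of cells of each gene. At 10000 UMIs the shares of cells with a UMI at 50 and 5 ng/ml were 24.4 and 9.63% for Spry4, 54.5 and 36.7% for Etv4, 9.27 and 4.39% for Otx2, and 15.7 and 25.8% for Lefty1. The log2 Fano ratio changed sign for Ctsl (0.18 at 60000 UMIs, against -1.37) and Hist1h2ap (0.018 as excess squared coefficient of variation, against -0.20). The Hook2 cell, with 239 Ctsl UMIs of 25000, held 39591 UMIs and so was not among the cells thinned to 60000. The cause of either change was not tested. All 30 ranked genes stayed past 1.2-fold in 9 other choices of scaling and cells. Without the top 1% of cells, Gm5662 had no value because no UMI was left at 5 ng/ml. Leaving out 1 cell at 5 ng/ml, chosen after seeing the data, left 63 genes higher and 159 lower.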

Other observations

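Some genes outside the lists that reached 20 CPM in 1 or both FGF4 libraries passed 1.2-fold. They were chosen here after their values were seen. Mkrn1, which encodes a ubiquitin ligase, had 352 CPM at 0, 883 CPM at 5 and 1162 CPM at 50 ng/ml, a ratio of 1.32 (1.30 to 1.33) between both FGF4 doses. Gadd45a, a growth arrest gene, had 64.3 CPM at 50 ng/ml and 47.1 CPM at 5 ng/ml, and Epha2, an ephrin receptor gene, had 48.0 CPM at 50 ng/ml and 36.7 CPM at 5 ng/ml. The receptor tyrosine kinase gene Kit had 92.4 CPM at 0, 31.2 CPM at 5 and 22.1 CPM at 50 ng/ml and was 1.41-fold lower at 50 than at 5 ng/ml (1.32 to 1.50). Spp1, which encodes osteopontin, was 1.26-fold lower (1.22 to 1.29). Ptch1 and Gli2, a receptor and a transcription factor of the Hedgehog pathway, were 1.30-fold and 1.31-fold lower.

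Genes that overlap ribosomal RNA repeats or are rich in their reads were lower at the high dose. Gm42418 had 1706 CPM at 50 ng/ml and 2078 CPM at 5 ng/ml, AY036118 was 1.34-fold lower and Lars2 was 1.36-fold lower. Of 90 ribosomal protein genes, 3 were at least 1.2-fold lower at 50 ng/ml, a share near the 2.93% of all genes.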
